A study of Mus musculus with 59 samples.

Results

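Gene expression in the ventral tegmental area (VTA) was compared between male mice conditioned with cocaine and male mice conditioned with saline. The 6 libraries of cocaine conditioning and the 6 of saline conditioning are 12 of the 59 RNA sequencing libraries of the study, chosen by the names of the table's columns. The remaining 47 libraries belong to cocaine and saline groups of acute home cage injection, chronic home cage injection and intravenous self-administration, and enter only the comparison between paradigms. Strain, age, dose, number of sessions, kind of conditioning and time of dissection are not given in the labels used here, and saline conditioning is the only control of this comparison. Of 24346 gene symbols, 13135 reached a mean of 1 FPKM over these 12 libraries and were tested. FPKM is the number of sequenced fragments per length of transcript and per size of library. A difference is the mean log2(FPKM + 1) after cocaine less that after saline, given with its standard error (SE); the added 1 makes the changes of low genes look smaller. Means of FPKM are given ± SD over 6 libraries. Libraries are named by group and by the number in their column name, which counts from 0.

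The VTA is a midbrain region whose dopamine neurons project to the striatum, amygdala and cortex and which also holds GABA and glutamate neurons, glia and vessels. Cocaine blocks the transporters that clear dopamine, noradrenaline and serotonin from the synapse. In conditioning, an animal receives the drug in a distinct setting and later treats the cues of that setting as rewarding, a form of learning to which VTA dopamine neurons are known to contribute. Bdnf, neuropeptides and the immediate early genes, which neurons and other cells switch on soon after stimulation, are among the genes most studied in this tissue after cocaine.

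Dissection and library quality were described first. Th, the rate-limiting enzyme of dopamine synthesis, lay between 146 and 655 FPKM, Slc6a3, the dopamine transporter, between 136 and 597, and Ddc, which makes dopamine from L-DOPA, between 119 and 436, and Pitx3, a transcription factor of midbrain dopamine neurons, between 2.14 and 19.2. These markers of the labelled tissue were present in every library, and their span within 1 group exceeded any gap between the groups. Among markers of neighbouring tissues, Gh, Prl, Avp and Oxt were listed at 0 in 9 to 11 of the 12 libraries. Pmch, the melanin-concentrating hormone of the hypothalamus, reached 9.24 FPKM in saline library 0 against 0.52 to 2.79 elsewhere. Hcrt, the orexin precursor of the lateral hypothalamus, was at 4.77 in the same library against at most 0.833 elsewhere. The gene Pou4f1, looked at with these, ran from 0.475 in saline library 0 to 6.87 in saline library 4, with a median of 3.79 FPKM. Sums of FPKM ran from 432426 to 456052 and each library listed between 5938 and 7401 symbols at 0. The read depth is unknown, so no counting interval was computed. The first principal component of log2(FPKM + 1) held 23.2% of the variance and set cocaine libraries 2 and 3 (scores 22.8 and 25.6) apart from the other 10 libraries (-9.96 to 5.42). The second held 16.01%, with saline libraries 0 and 2 at its upper end (20.5 and 16.4). Neither component parted cocaine from saline. The labels do not say that the libraries came from separate animals, so a p-value measures only the spread between these libraries, which may be technical.

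No gene passed the adjusted threshold. Over the 13135 genes limma with Benjamini-Hochberg adjustment called 0% of genes (0 genes) at 0.05, and the smallest adjusted p was 0.147. At an unadjusted p under 0.05 there were 1078 genes, against 657 that chance alone would give over independent genes: 516 higher after cocaine (3.93%) and 562 lower (4.28%). When 1 library was left out, the count of 1078 became 690 (without saline library 2) to 1347 (without saline library 3). It lay below the 657 when the spread was shared over all 8 groups (577). It also did so without saline libraries 0 and 2 (493) and without saline libraries 0, 1 and 2 (297), settings chosen after seeing the data. With at least 1.3-fold in addition, 19 genes were higher (0.145%) and 51 lower (0.388%). In 21 genes (0.16%) every cocaine library lay above every saline library, and in 32 genes (0.244%) every cocaine library lay below. The same fit with library quality weights, which count less on libraries that stand apart, called 1 gene, B230209E15Rik. The median difference over all genes tested was -0.000236, with 49.9% of genes higher and 50.1% lower. All single genes below are therefore given by their values and unadjusted p, and none is a call at the adjusted threshold unless so stated.

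The gene with the smallest p was B230209E15Rik, a long intergenic noncoding RNA at chr7:61529871-61615327 on the minus strand (GRCm38). After cocaine its FPKM was 20.2 at the lowest, 22.3 at the median and 24.0 at the highest, and after saline 26.2, 30.01 and 33.3. The groups did not overlap, and the 6 cocaine libraries were closely spaced. The means were 22.2 ± 1.48 and 29.6 ± 2.48 FPKM, 1.33-fold lower after cocaine. The difference was -0.40 ± 0.06 (SE), with a limma adjusted p of 0.147, which became 0.0375 with library quality weights. With the spread shared over all 8 groups the SE was 0.12 and the limma adjusted p 0.97. The limma adjusted p was 0.568 without cocaine library 2, 0.554 without saline library 1 and 0.0615 without saline library 4. Ecel1 had the smallest p without cocaine library 5, and Bhlhe22 without saline library 5. An exact two-sided permutation test over all divisions of the 12 libraries into 6 and 6 gave p = 0.00216, the smallest that this design allows. Every gene without overlap has this value, so it adds nothing to the lack of overlap. Permutation p-values are not adjusted for the number of genes tested. Leaving out any 1 library kept the difference of B230209E15Rik between -0.43 and -0.36.

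The leading lower genes had varied functions. Bhlhe22, a basic helix-loop-helix transcription factor of neurons (chr3:18054174-18057517, plus strand), had FPKM of 2.79, 3.31 and 3.69 (lowest, median, highest) after cocaine and 4.17, 5.08 and 6.70 after saline. The groups did not overlap, with saline library 2 the highest. Its difference was -0.53 ± 0.09 (limma adjusted p = 0.309), and its mean FPKM was 1.59-fold lower after cocaine. Nhlh2, another helix-loop-helix factor of neurons, differed by -0.45 ± 0.11, from 4.70 ± 0.671 FPKM after saline to 3.21 ± 0.673 after cocaine, with 2 cocaine libraries above the lowest saline library. Kit, the receptor tyrosine kinase for stem cell factor, lay at 2.49 to 3.47 FPKM after cocaine and 3.87 to 6.37 after saline, again without overlap, and saline library 2 stood apart at the top. Gpx3, a secreted glutathione peroxidase, lay at 24.4 to 34.2 after cocaine and 35.4 to 53.8 after saline (-0.44 ± 0.11). Nos1, the neuronal nitric oxide synthase, and Nxph4, a secreted neurexin ligand, differed by -0.44 ± 0.12 and -0.64 ± 0.18, each with overlapping groups.

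For a pair of lower genes the identity or level is less certain. H2-L, a class I histocompatibility gene, lay at 1.56 to 5.12 FPKM after cocaine and 5.13 to 9.02 after saline (-0.84 ± 0.20). Class I genes are close copies of each other, so the reads of H2-L could have been split between them, and the interferon and histocompatibility list, which does not hold H2-L, showed no such size (21 tested, 7 higher and 14 lower, median -0.05, none at an unadjusted p under 0.05). Rps27, a ribosomal protein with near-identical copies in the genome, was at 5.09 to 14.9 FPKM in the cocaine libraries, at 6.38 and 7.78 in saline libraries 1 and 2, and at 47.0 to 71.1 in the other 4 saline libraries (-1.96 ± 0.65, limma unadjusted p = 0.0129). Its saline values thus fell into a low and a high set, and the low set lay within the cocaine range. Among all 76 ribosomal protein genes tested, 23 were higher and 53 lower with a median of -0.04, and Rps27 was the 1 member lower at an unadjusted p under 0.05 (background 4.28%). Tspan18, Gpsm3, Kantr, Ecel1 and Rrad, with differences from -0.68 to -0.44, and Bdnf and Nts, described below, were also among the 15 leading lower genes, whereas Rps27 was not.

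**Figure D1:**
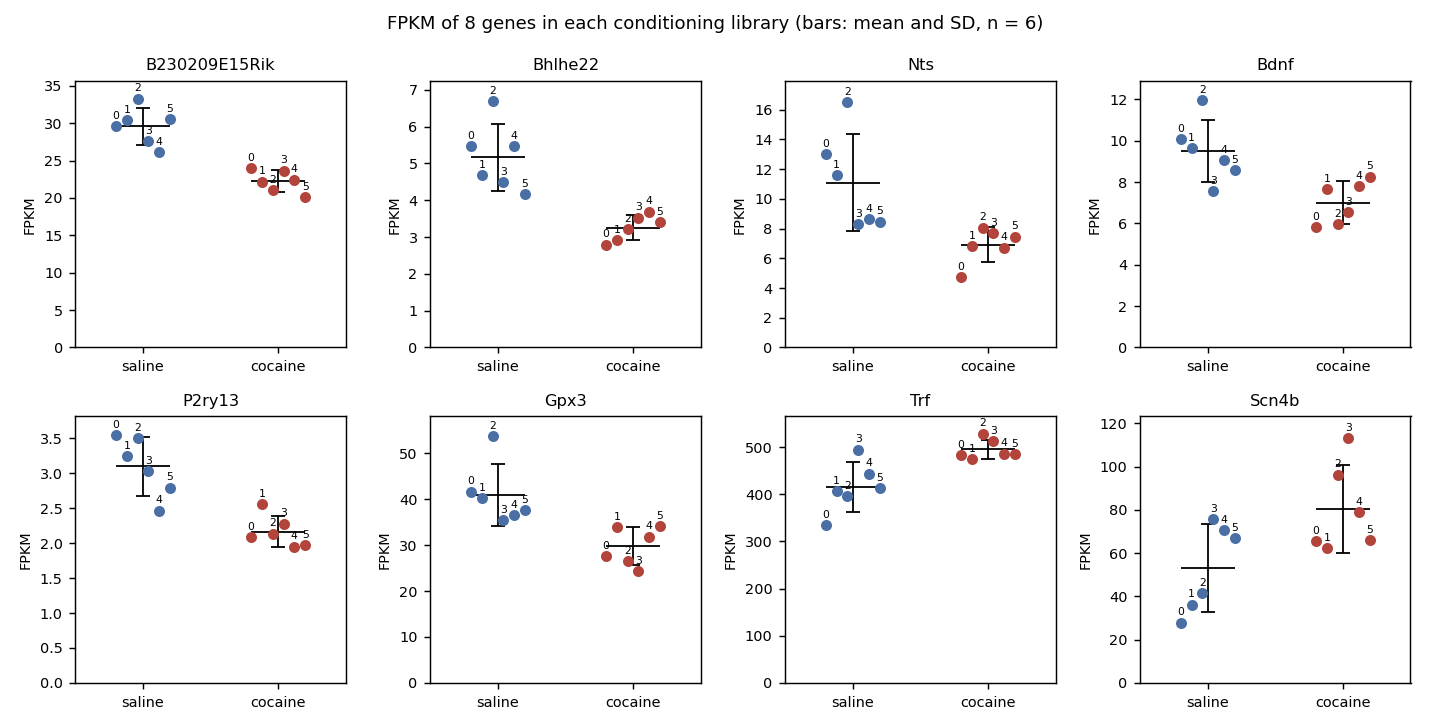
FPKM (vertical axes, from 0) of 8 genes in the 6 saline and 6 cocaine conditioning libraries; each point is a library with its number, and bars give the mean and SD. B230209E15Rik, Bhlhe22, Nts and Gpx3 show no overlap between groups, whereas Scn4b overlaps, with saline libraries 0, 1 and 2 at 27.9 to 41.4 FPKM and the other 3 saline libraries at 66.8 to 75.8.

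Neuropeptide genes lay lower as a list. Of 28 tested members of the neuropeptide and opioid list, 22 were lower and 6 higher after cocaine, with a median of -0.23. At an unadjusted p under 0.05, 3 members were lower (background 4.28% of genes) and none higher. In bulk tissue, fewer cells of a type and less RNA per cell cannot be told apart, here and for every list below. Nts encodes neurotensin, a peptide released in the VTA that acts on dopamine neurons. Its FPKM was 4.76, 7.16 and 8.07 (lowest, median, highest) after cocaine and 8.30, 10.1 and 16.5 after saline, so that the groups did not overlap, though the highest cocaine and the lowest saline library were close. The difference was -0.58 ± 0.16, 1.60-fold lower on the mean FPKM (exact permutation p = 0.00216, the value of every gene without overlap). Adcyap1, the peptide PACAP, lay at 32.3, 42.9 and 50.9 after cocaine and 49.8, 54.0 and 83.1 after saline (-0.44 ± 0.13), with saline library 2 far above the rest and cocaine library 5 just inside the saline range. Scg2, a precursor of secretory granule peptides and 1 of the most abundant members, was at 323 ± 47.8 FPKM after cocaine and 378 ± 38.7 after saline (-0.23 ± 0.09), and Pnoc, the nociceptin precursor, at 7.86 ± 1.38 and 9.00 ± 0.818 (-0.19 ± 0.10).

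The peptides that mark classes of neurons varied more between libraries than between groups. Sst, somatostatin, spanned 49.0 to 137 FPKM after cocaine and 78.9 to 250 after saline (-0.63, unadjusted p = 0.11). Tac1, the substance P precursor, differed by -0.45 and Penk, the enkephalin precursor, by -0.22, both with overlapping groups. Opioid receptors lay close to no difference: Oprm1, the mu receptor, at -0.06, Oprd1, the delta receptor, at 0.03, and Oprk1, the kappa receptor, at 0.10. The summed level of the peptide list, the mean log2(FPKM + 1) of its tested members, ran from 3.39 to 4.10 over cocaine libraries. Over saline libraries it ran from 3.94 to 4.13 apart from saline library 0 at 3.56. Cocaine libraries 0 to 4 lay below those 5 saline libraries, and cocaine library 5 lay among them.

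Immediate early genes lay lower in most members. Of 33 tested, 26 were lower and 7 higher (median -0.13), and 5 were lower at an unadjusted p under 0.05 (background 4.28%): Bdnf, Junb, Ier5, Gadd45g and Nr4a2. Bdnf, the neurotrophin that binds TrkB, had FPKM of 5.83, 7.09 and 8.27 after cocaine and 7.58, 9.34 and 12.0 after saline. The groups overlapped at saline library 3, and saline library 2 was again the highest. The means were 7.01 ± 1.03 and 9.48 ± 1.497, 1.35-fold lower after cocaine, with a difference of -0.39 ± 0.10 (exact permutation p = 0.00866). Junb, a subunit of the AP-1 transcription factor, was at 6.07, 10.6 and 13.3 after cocaine and 12.6, 13.0 and 16.3 after saline (-0.41 ± 0.14), with cocaine library 2 lowest and cocaine library 5 inside the saline range. Nr4a2, an orphan nuclear receptor that dopamine neurons also need, was at 25.7 ± 8.01 and 34.2 ± 5.39 FPKM (-0.44 ± 0.19). The members that define the list differed less: Fos by -0.09, Arc by -0.04 and Egr1 by -0.18, none at an unadjusted p under 0.05. The level of the list was 2.82 to 2.89 in cocaine libraries 0 to 3, 3.04 and 3.11 in cocaine libraries 4 and 5, and 3.00 to 3.13 after saline.

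Many immediate early genes carry cyclic AMP response elements, sites of the activity-dependent factor CREB. The letters TGACGTCA, a palindrome that reads the same on both strands, were searched in the 250 bases before the RefSeq start of each gene (GRCm38.p6). Of the 33 members 25 had an entry, and 4 held the element (16%), against 3.14% of the 9922 tested genes with an entry and 1.55% of all 32851 promoters of the table. The 4 are shown because none of them lay lower after cocaine: Arl4d differed by 0.14, Maff by 0.08, Dusp1 by 0.04 and Btg2 by 0.02, each at an unadjusted p over 0.05. A match is a description of the letters, not a site. Capitals mark the element, 5′ to 3′ along the gene, in Arl4d (chr11:101665291-101665540, plus strand), Maff (chr15:79347270-79347519, plus strand), Dusp1 (chr17:26508473-26508722, minus strand) and Btg2 (chr1:134079156-134079405, minus strand).
Arl4d: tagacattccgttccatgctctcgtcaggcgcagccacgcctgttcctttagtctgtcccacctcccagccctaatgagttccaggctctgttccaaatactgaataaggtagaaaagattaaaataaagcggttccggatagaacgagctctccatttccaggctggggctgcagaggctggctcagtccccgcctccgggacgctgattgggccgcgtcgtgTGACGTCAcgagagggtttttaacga
Maff: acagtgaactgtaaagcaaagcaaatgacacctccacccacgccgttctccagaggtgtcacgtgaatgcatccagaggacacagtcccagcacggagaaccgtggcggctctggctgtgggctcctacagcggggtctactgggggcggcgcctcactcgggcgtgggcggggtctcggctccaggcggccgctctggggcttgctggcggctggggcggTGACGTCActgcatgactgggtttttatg
Dusp1: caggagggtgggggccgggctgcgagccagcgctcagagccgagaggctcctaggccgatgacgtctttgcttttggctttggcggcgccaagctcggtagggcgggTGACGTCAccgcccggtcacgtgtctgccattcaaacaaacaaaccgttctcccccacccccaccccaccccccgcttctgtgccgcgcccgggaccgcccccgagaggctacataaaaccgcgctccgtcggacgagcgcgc
Btg2: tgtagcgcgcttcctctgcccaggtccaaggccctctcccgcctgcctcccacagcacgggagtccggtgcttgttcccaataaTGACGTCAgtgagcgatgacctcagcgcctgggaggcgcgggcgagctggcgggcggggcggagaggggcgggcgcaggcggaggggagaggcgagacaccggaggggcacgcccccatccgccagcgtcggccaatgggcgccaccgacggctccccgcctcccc
In Arl4d and Maff the first base of the element stands 26 and 29 bases before the start, and in Dusp1 and Btg2 143 and 166 bases before it.

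Microglial genes were lower in 23 of 24 members tested (median -0.16), and 7 were lower at an unadjusted p under 0.05 (background 4.28%). Microglia are the resident macrophages of the brain. P2ry13, a purine receptor of microglia (chr3:59207892-59210882, minus strand), had FPKM of 1.95, 2.11 and 2.55 after cocaine and 2.47, 3.14 and 3.55 after saline. A single pair of libraries, saline 4 and cocaine 1, overlapped, and the difference was -0.37 ± 0.07 (exact permutation p = 0.00433). P2ry12, the neighbouring purine receptor that homeostatic microglia use to sense injury, was at 8.98 ± 1.53 and 11.3 ± 2.28 FPKM (-0.30 ± 0.12), Siglech, a lectin of microglia, at 3.44 ± 0.351 and 4.22 ± 0.795 (-0.22 ± 0.09), and C1qc, a chain of complement C1q, at 27.9 ± 4.23 and 33.0 ± 4.19 (-0.24 ± 0.10). The other members at that limit were Cx3cr1, C1qa and Olfml3, and Sall1, a transcription factor of microglial identity, was the 1 member that was higher, by 0.02. Over cocaine libraries the list's level was 3.41 to 3.56. Saline libraries 0 and 1 stood at 3.94 and 3.76, and the other 4 saline libraries at 3.45 to 3.57, within or close to the cocaine range. Without saline library 0 the median of the list was -0.07, and without saline libraries 0, 1 and 2 it was -0.02. The PU.1 core GAGGAAGT, searched on both strands, was found before the start of 1 of 17 members with an entry (C1qc, on the reverse strand), or 5.88%, against 2.62% of tested genes.

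The potassium and sodium channel genes Kcna1, Kcnab3 and Scn4b and the synaptic gene Syt2 were among the 15 leading higher genes, and in each of them saline libraries 0, 1 and 2 stood below all other libraries. Ion channel genes as a list were mixed: of 34 tested, 19 were higher and 15 lower (median 0.01). At an unadjusted p under 0.05, 6 were higher (background 3.93%) and 2 lower (background 4.28%). The sodium channel gene Scn2a1 was at 22.5 ± 1.79 FPKM after cocaine and 25.9 ± 2.95 after saline. A further list of 19 channel, cytoskeletal and synaptic genes of large, fast-firing neurons was put together after the leading genes had been seen. Its count is a description without a test: 18 were higher and 1, Prph, lower, with a median of 0.50. Scn4b, the β4 subunit of sodium channels that supports resurgent current, had FPKM of 62.2, 72.4 and 113 after cocaine and 27.9, 54.1 and 75.8 after saline (0.65 ± 0.26). Saline libraries 0, 1 and 2 were at 27.9, 36.2 and 41.4, below every cocaine library, and the other 3 saline libraries lay within the cocaine range. Kcna1, a delayed-rectifier potassium channel of axons, was at 52.3 ± 12.4 and 37.3 ± 10.5 FPKM (0.50 ± 0.20). Syt2, a fast calcium sensor of synaptic vesicles, was at 67.4 ± 10.6 and 48.0 ± 17.7 (0.55 ± 0.23). Nefh, the heavy neurofilament, which was not in the leading set, showed the same split: 42.3 to 53.0 FPKM in saline libraries 0, 1 and 2, 99.8 to 182 in the other saline libraries and 93.4 to 160 after cocaine. The list as a whole stood at 5.28, 5.46 and 5.51 in saline libraries 0, 1 and 2 and 6.02 to 6.57 in the other 9 libraries. Without those 3 libraries the median of the list was 0.01, Scn4b differed by 0.14 and Kcna1 by 0.14.

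The other leading higher genes shared this order of libraries in part. In Rimkla, Gem, Aldh3a1, Kctd9, Dnajc22, Cela1 and Fstl1, saline libraries 0, 1 and 2 again stood below all other libraries. In Rassf4, 1810044D09Rik, Rsc1a1 and 2310002D06Rik they did not. Rimkla, which makes the neuropeptide N-acetylaspartylglutamate, was at 20.9, 24.2 and 28.8 FPKM after cocaine and 13.5, 17.6 and 23.1 after saline, with saline libraries 0, 1 and 2 lowest (0.45 ± 0.14, and 0.15 without those 3). Gem, an inhibitory GTPase of calcium channels, differed by 0.41 ± 0.14, Aldh3a1, an aldehyde dehydrogenase, by 0.56 ± 0.20, and Rassf4, a Ras-association protein, by 0.52 ± 0.19. The order was the opposite in Rsc1a1, a regulator of solute carriers, with 2.52, 2.22 and 2.46 FPKM in saline libraries 0, 1 and 2 and at most 1.83 in the other 3 (0.48 ± 0.19), and in the noncoding RNA 2310002D06Rik, with 1.44 to 1.95 against at most 1.26 (0.38 ± 0.13). Kctd9, Dnajc22, Cela1, 1810044D09Rik and Fstl1 were the others of the 15, at 0.40 to 0.48. Genes without overlap between groups had narrower margins. Slc4a2, a chloride and bicarbonate exchanger, lay at 26.6 to 28.1 FPKM after cocaine and 19.8 to 26.3 after saline (0.23 ± 0.06), and Slc20a1, a phosphate transporter, at 54.3 to 63.0 and 45.6 to 53.2 (0.22 ± 0.05). Lrrc20, B3galt5 and Zswim5 followed at 0.19 to 0.20.

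**Figure D2:**
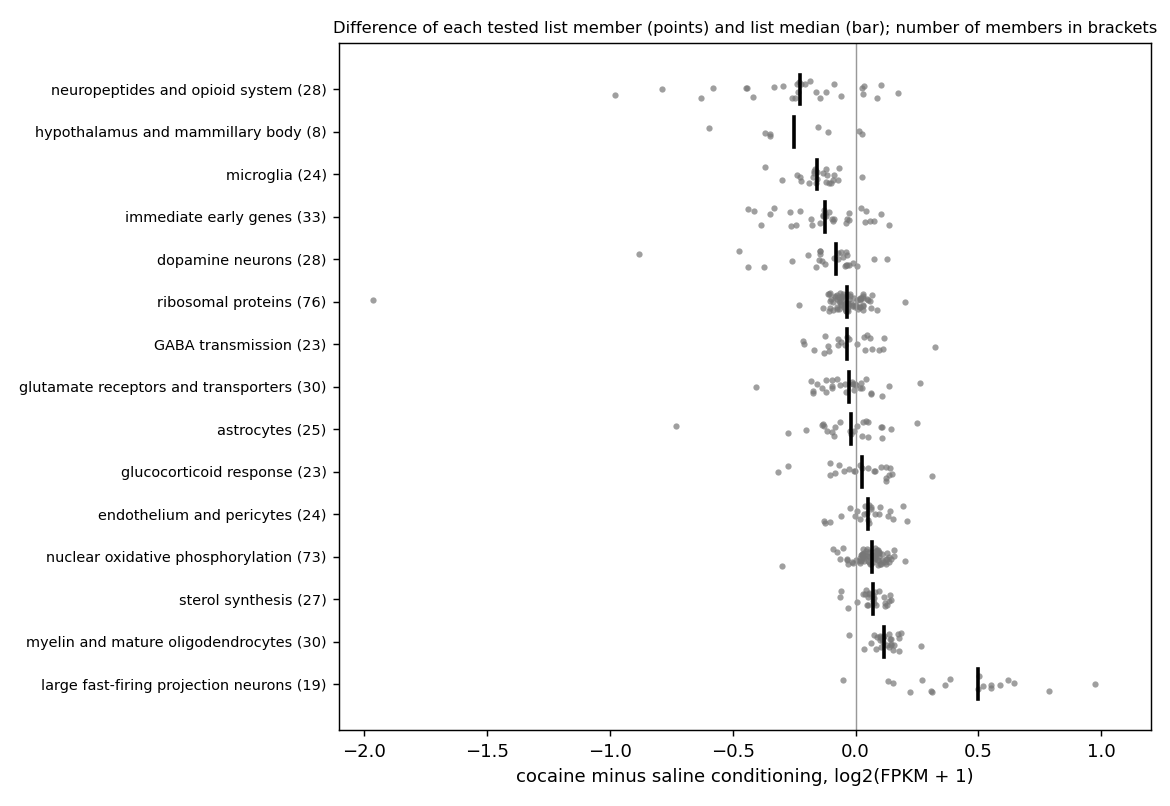
Difference between cocaine and saline conditioning on the log2(FPKM + 1) scale (horizontal axis) for the tested members of 15 gene lists, 1 point per gene, with the list median as a bar and the number of members in brackets. Medians run from -0.25 for markers of the hypothalamus and mammillary body to 0.50 for genes of large fast-firing neurons, a list put together after the leading genes had been seen, against -0.000236 over all genes tested.

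Markers of tissue next to the VTA moved with some of the same libraries. The list of the hypothalamus and mammillary body had 8 tested members, 6 lower and 2 higher, with a median of -0.25 and none at an unadjusted p under 0.05. Foxb1, a forkhead factor of the mammillary body, was at 0.73 to 1.64 FPKM after cocaine and reached 2.06 and 3.64 in saline libraries 0 and 2. Barhl1, a homeobox factor of the same region, was at 2.67 and 2.89 in those 2 libraries and at most 1.89 after cocaine. The level of the list, the mean log2(FPKM + 1) of its tested members, was 2.72, 2.48 and 2.38 in saline libraries 0, 2 and 5 and 1.66 to 2.33 in the other 9. Without saline library 0 the median of the list was -0.07. Saline library 2, which was the highest for Bhlhe22, Kit, Gpx3, Nts, Adcyap1 and Bdnf, was thus also high for these markers. Without it the differences were -0.47 for Nts, -0.32 for Bdnf, -0.36 for Gpx3 and -0.46 for Bhlhe22, and without saline libraries 0, 1 and 2 they were -0.27 for Nts, -0.24 for Bdnf and -0.30 for Gpx3. The part of dissection in these differences was not tested.

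Myelin genes were higher in 29 of 30 members (median 0.11), and 4 of them, Trf, Mag, Enpp2 and Plekhb1, at an unadjusted p under 0.05 (background 3.93%). Trf, the iron carrier transferrin made in brain mainly by oligodendrocytes, had FPKM of 475, 486 and 529 after cocaine and 334, 410 and 495 after saline. The cocaine libraries were tightly grouped, and 1 saline library, number 3, lay within their range. The difference was 0.26 ± 0.08 (exact permutation p = 0.0108). Mag, myelin-associated glycoprotein, was at 253 ± 15.0 and 224 ± 19.0 FPKM (0.18 ± 0.06). Ppp1r14a, a phosphatase inhibitor, was the 1 member that was lower, by -0.03. As a list, myelin genes stood at 6.94 to 7.26 after cocaine and 6.77 to 7.17 after saline, with saline library 0 lowest, and without saline libraries 0, 1 and 2 its median was 0.06. Genes of oligodendrocyte precursors did not share the direction (17 tested, 7 higher, 10 lower, median -0.01).

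Sterol synthesis genes were higher in 24 of 27 members (median 0.07), and 4 of them, Ebp, Stard4, Msmo1 and Insig1, at an unadjusted p under 0.05 (background 3.93%). The differences were small. Ebp, an isomerase of the last steps to cholesterol, was at 13.2, 14.4 and 15.3 FPKM after cocaine and 12.2, 12.9 and 13.5 after saline (0.14 ± 0.04), the groups overlapping at cocaine library 3. Stard4, a sterol carrier, was at 12.6 ± 1.21 and 11.3 ± 0.315 (0.15 ± 0.05), and Insig1, which holds back the sterol-sensing factor SREBP, at 78.2 ± 7.45 and 70.7 ± 4.64 (0.14 ± 0.06). Srebf2, the SREBP gene of this pathway, differed by -0.03. The level of the list was highest in cocaine libraries 0 and 1 (5.06 and 4.95), while cocaine libraries 2 and 3 (4.79 and 4.77) lay beside the saline minimum of 4.78. Without cocaine library 0 the median of the list was 0.02. The sterol response core TCACCCCA, searched on both strands, stood before the start of 2 of 20 members with an entry, Hmgcs1 and Srebf2 (10%), against 1.63% of tested genes.

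Genes of respiration were higher in 63 of 73 members (median 0.07), and 4 were higher at an unadjusted p under 0.05, a share near the background of 3.93%. They were Cox4i1, Ndufa9, Ndufa10 and Cox5a, all subunits of the respiratory chain. Cox4i1 was at 949 ± 51.2 and 882 ± 34.6 FPKM (0.10 ± 0.05). Their level was highest in cocaine libraries 2 and 3 (8.02 and 8.11) and lowest in cocaine library 0 (7.76), and without cocaine libraries 2 and 3 the median was 0.0042.

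Dopamine neuron genes varied more between libraries than between groups. Of 28 tested, 25 were lower and 3 higher (median -0.08). The level of the list was 4.15 and 4.34 in cocaine libraries 3 and 2, 4.43 and 4.45 in saline library 5 and cocaine library 5, and 5.51 and 5.68 in saline library 0 and cocaine library 0. Th was at 337 ± 206 FPKM after cocaine and 316 ± 132 after saline (-0.04 ± 0.43), Slc6a3 at 292 ± 175 and 288 ± 165 (-0.04 ± 0.45), Slc18a2, the vesicular monoamine transporter, at 119 ± 68.8 and 118 ± 54.8 (-0.07 ± 0.40), and Drd2, the dopamine autoreceptor, at 40.5 ± 19.8 and 40.3 ± 14.6 (-0.07 ± 0.33). All 4 differences changed sign when cocaine libraries 2 and 3 were left out, to 0.41, 0.38, 0.26 and 0.29, and so did the median of the list, to 0.21. Cocaine libraries 2 and 3, which the first principal component set apart, were the 2 lowest for Th, at 164 and 146 FPKM, and for Slc6a3, at 136 and 147. They were chosen after seeing the data, and leaving out the lowest libraries of a group raises its mean in any case. The change of sign is therefore no separate result. Differences of the size of these standard errors could not be detected in these libraries.

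Against that spread, 3 members were lower at an unadjusted p under 0.05 (background 4.28%). Fgf20, a growth factor of dopamine neurons, was at 0.368, 0.634 and 1.77 FPKM after cocaine and 0.965, 2.32 and 5.35 after saline, with saline library 0 highest and overlapping groups (-0.88 ± 0.26). Lmx1a, a homeobox factor that specifies dopamine neurons, was at 3.79 ± 1.37 and 5.53 ± 1.32 FPKM (-0.48 ± 0.20), and its relative Lmx1b at 5.45 ± 2.90 and 7.00 ± 2.30 (-0.37 ± 0.30). Nr4a2, given above with the immediate early genes, is the third. Nicotinic receptor genes, several of which dopamine neurons express, had a median of -0.14 over 7 members, 5 lower and 2 higher, and their level followed that of the dopamine list, from 3.32 in cocaine library 3 to 4.63 in cocaine library 0.

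**Figure D3:**
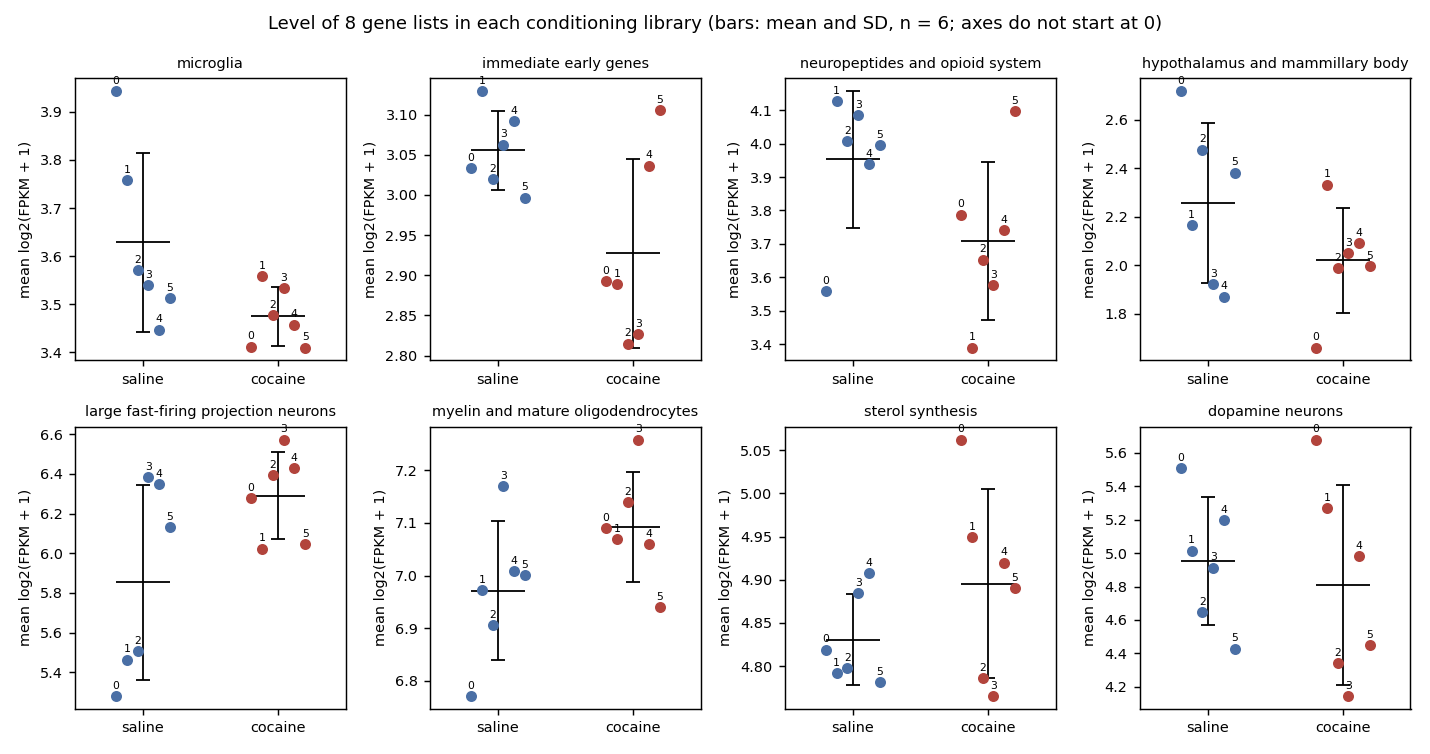
Mean log2(FPKM + 1) of the tested members of 8 gene lists (vertical axes, not from 0) in each conditioning library, numbered, with the mean and SD of each group as bars. Saline libraries 0, 1 and 2 stand at 5.28 to 5.51 for genes of large fast-firing neurons, below the other 9 libraries, and cocaine libraries 2 and 3 stand lowest for dopamine neurons.

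Transmitter genes showed mixed directions. Of 23 GABA transmission genes 10 were higher and 13 lower (median -0.04), with Gabrg1 and Gabrg3, γ subunits of the GABA-A receptor, the 2 members lower at an unadjusted p under 0.05 (background 4.28%, differences -0.21 ± 0.07 and -0.21 ± 0.09). Gad1, which makes GABA, was at 106 ± 24.2 FPKM after cocaine and 84.0 ± 16.1 after saline (0.32 ± 0.16, unadjusted p above 0.05). Of 30 glutamate receptor and transporter genes 10 were higher and 20 lower (median -0.03). Gria2, the AMPA receptor subunit that limits calcium entry, lay at 36.2, 38.3 and 40.6 FPKM after cocaine and 39.6, 44.1 and 48.8 after saline (-0.17 ± 0.05), Grm2, a presynaptic metabotropic receptor, at 3.67 ± 0.789 and 5.25 ± 1.60 (-0.40 ± 0.15), and Grin2a, an NMDA receptor subunit, at 4.34 ± 0.728 and 3.46 ± 0.609 (0.26 ± 0.10). The groups overlapped for each of these receptor genes.

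Astrocyte genes had no common direction (11 higher and 14 lower of 25, median -0.02), and 7 were at an unadjusted p under 0.05, 2 higher (background 3.93%) and 5 lower (background 4.28%). Gfap, the intermediate filament that reactive astrocytes make more of, was at 12.9, 18.3 and 42.3 FPKM after cocaine and 22.02, 32.1 and 56.0 after saline (-0.73 ± 0.28), with cocaine library 0 and saline library 0 the highest of their groups. Slc1a3, the glutamate transporter GLAST, was at 60.01 ± 9.04 and 72.7 ± 9.45 (-0.28 ± 0.10), whereas Slc1a2, the glutamate transporter GLT-1, was at 155 ± 7.78 and 144 ± 5.83 (0.11 ± 0.04). The pair of astrocyte glutamate transporters thus differed in opposite directions. Endothelial and pericyte genes were higher in 18 of 24 (median 0.05), 2 at an unadjusted p under 0.05 (background 3.93%), Abcc9 and Slc2a1.

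Stress hormone targets were mixed. Of 23 glucocorticoid response genes 13 were higher and 10 lower (median 0.03), with 3 higher at an unadjusted p under 0.05 (background 3.93%). Gpd1, a glycerol phosphate dehydrogenase that glucocorticoids are known to raise in oligodendrocytes, was at 27.8, 32.6 and 38.2 FPKM after cocaine and 20.9, 25.9 and 30.7 after saline (0.31 ± 0.09), with 2 saline libraries inside the cocaine range. Nfkbia, the NF-κB inhibitor, and Errfi1, an inhibitor of EGF receptor signalling, each differed by 0.14 ± 0.05. Fkbp5, the usual marker of glucocorticoid receptor activity, differed by -0.01. Circadian clock genes were higher in 5 and lower in 14 of 19 (median -0.03), and cytosolic heat shock genes higher in 9 and lower in 8 of 17.

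The remaining lists are given by their counts. Chromatin regulators were higher in 17 and lower in 17 of 34, with Ezh2, the histone H3 lysine methyltransferase of Polycomb, and Smarca2, a remodelling ATPase, the 2 members lower at an unadjusted p under 0.05 (-0.17 and -0.18), a share near the background of 4.28%. Growth factors and receptors were higher in 14 and lower in 16 of 30, and 2, Bdnf and Fgf20, were lower at that limit (background 4.28%) and none higher (background 3.93%). Of 27 extracellular matrix genes 10 were higher and 17 lower (median -0.07). At an unadjusted p under 0.05, 2 were higher (background 3.93%) and 1 lower (background 4.28%). The extremes of the list were Thbs1, an astrocyte-secreted thrombospondin, at -0.30 and Acan, the aggrecan of perineuronal nets, at 0.33. Of 22 genes of the unfolded protein response 7 were higher and 15 lower. Of 13 forebrain markers 5 were tested, and all 5 were lower (median -0.09). Rgs9, a regulator of dopamine receptor signalling, is named here after its values were seen. It was the 1 among them without overlap between groups (background 0.244% of genes lower without overlap). Its difference was -0.37 (limma unadjusted p = 0.000749), and 4.28% of all genes were lower at an unadjusted p under 0.05. Red blood cell genes were higher in 6 of 7, but Hba-a1 and Hba-a2, near-identical copies of α-globin, stood at -1.37 and 1.53, and their reads could have been split between them.

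The cocaine effect of conditioning was then set against that of each other paradigm, in 1 fit of all 8 groups over 13186 genes. The test is of the difference between cocaine effects, and the 3 differences share the conditioning libraries. Some genes had another base level in self-administration. Mean H2-L was 0.0507 (saline) and 0.228 FPKM (cocaine) there and 3.76 to 7.85 in all other groups. The pseudogene Atp6v0c-ps2 was at 741 and 695 against 1.66 to 119. Drd2 was alike, at 41.1 and 41.0 against 37.2 to 45.9. The part of base level in the differences was not tested. Limma called 0 genes in each of the 3 differences, with smallest adjusted p of 1 against acute, 1 against chronic and 0.209 against self-administration, the last for Sh3bp2. At an unadjusted p under 0.05 the difference was 186 genes (1.41%) against acute injection, 287 (2.18%) against chronic injection and 395 (3%) against self-administration. In fits of the 2 paradigms compared alone, which also called 0 genes, these counts were 490 of 13153, 764 of 13167 and 253 of 13149. No gene's cocaine effect was thus shown to differ between conditioning and another paradigm.

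Single genes are given by their values in this fit. The effect of cocaine on Bhlhe22 was -0.53 in conditioning, 0.07 in acute, -0.04 in chronic injection and 0.01 in self-administration, and that on B230209E15Rik was -0.40, -0.19, -0.04 and -0.15 in the same order. Bdnf was at -0.39, -0.06, -0.06 and 0.10, and Junb at -0.41, 0.12, 0.37 and 0.36. For Junb the difference between conditioning and chronic injection was -0.79 (limma unadjusted p = 0.0333) and that between conditioning and self-administration -0.78 (unadjusted p = 0.0173). Mean Junb was 2.14 and 3.10 FPKM in self-administration saline and cocaine and 10.3 to 13.8 in all other groups, so the added 1 weighs unequally on its effects. Over the 33 immediate early genes the medians were -0.13 in conditioning, 0.06 in acute, 0.11 in chronic injection and 0.06 in self-administration, and 4, 5 and 4 members differed between conditioning and those paradigms at an unadjusted p under 0.05 (background 1.41%, 2.18% and 3%). Fgf20 was at -0.88, -0.85, -0.66 and -0.50, below 0 in each paradigm.

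Lists were also set side by side. The neuropeptide list had medians of -0.23 in conditioning, -0.04 in acute, 0.00 in chronic injection and 0.08 in self-administration, and the microglia list -0.16, -0.01, 0.03 and -0.07. Sterol synthesis was at 0.07, 0.00, 0.06 and -0.10, and 8 of its 27 members differed between conditioning and self-administration at an unadjusted p under 0.05 (background 3%). Myelin genes had medians of 0.11, 0.12, 0.02 and 0.03, with no member at that limit in any difference.

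**Figure D4:**
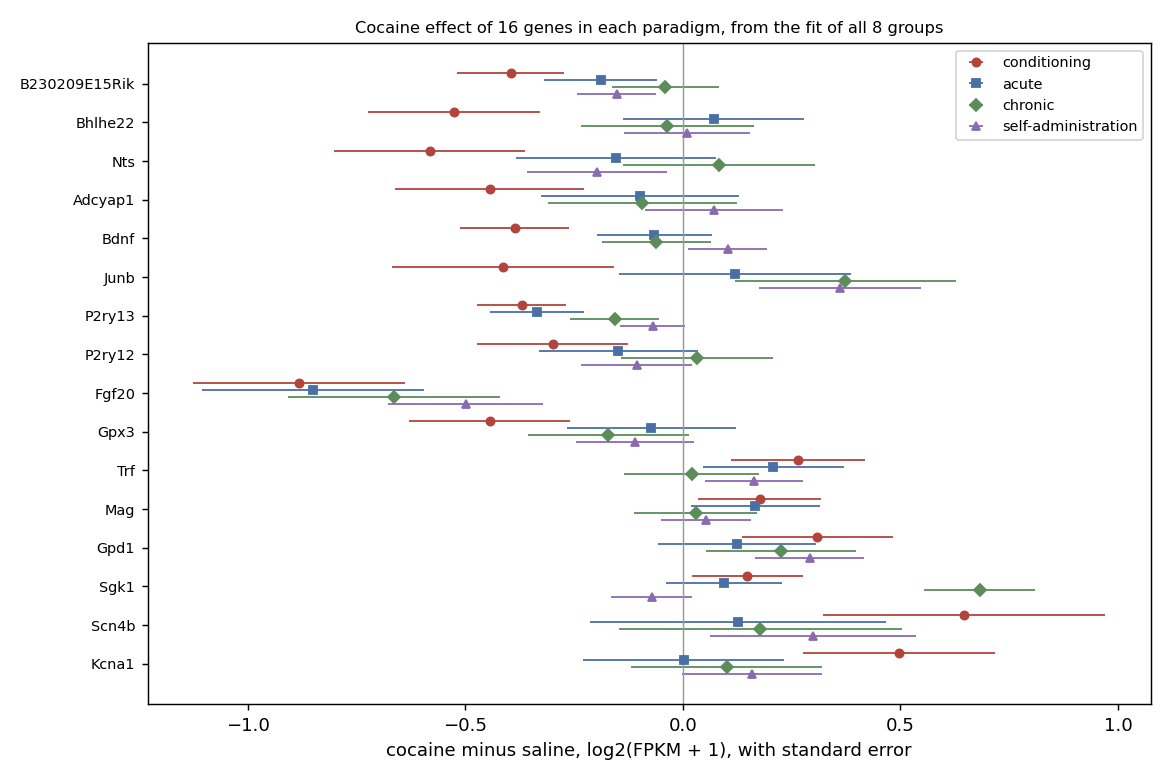
Difference in log2(FPKM + 1) between cocaine and saline (horizontal axis) for 16 genes in conditioning, acute injection, chronic injection and self-administration, as points with standard errors from the fit of all 8 groups. Bhlhe22 stands at -0.53 in conditioning and between -0.04 and 0.07 in the other paradigms, while Fgf20 lies below 0 in all 4, and no difference between paradigms passed the adjusted threshold.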

How the data were processed

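Total RNA of the VTA was made into libraries with a TruSeq kit, per the labels' protocols. The authors deposited a single FPKM table, with gene symbols in rows and libraries in columns; Bowtie, Cuffnorm and the build mm10 are named in the submitters' processing notes, while versions, annotation, strand setting and filters are not given there. FPKM depends on the composition of each library. Whole reads could not be recovered from low values, so no count test was run.

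Columns were assigned to groups by name. Genes that reached a mean of 1 FPKM were fitted as log2(FPKM + 1) with limma 3.58.1 in R 4.3.3 (robust empirical Bayes with a mean trend, two-sided tests), with Benjamini-Hochberg adjustment over all genes and a threshold of 0.05. The script was tested on simulated data. Differences between paradigms came from 1 fit of all 8 groups. Members, the 32 gene lists, the tests and the rule for named genes were chosen with earlier results of these data known, and 1 further list was added afterwards. Lists are described by counts and medians, without a test. Named genes were up to 15 per direction by smallest p among those with at least 1.3-fold, up to 5 per direction without overlap between groups, the 4 members of smallest p and defining members of each list described, up to 3 per difference between paradigms, Th, Slc6a3, Slc18a2, Drd2 and Fgf20. Further list members, among them Ezh2, Smarca2, Thbs1, Acan, Rgs9, Hba-a1 and Hba-a2, were named outside this rule. Coordinates are from GENCODE M21 (GRCm38) by symbol, and promoter sequences from RefSeq (GRCm38.p6). Alternatives were another pseudocount, filters, scalings, weights and fits, and leaving out libraries.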

Additional observations from a re-analysis of the deposited data

Results flagged for a closer look

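A library apart was sought in 220 groups of 6 libraries, 1 for each named gene and each checked list level in each group. Only part of the lists had their level checked. A library stood apart from the other 5 where its gap to the nearest of them, as a share of the whole range, exceeded Dixon's limit. This held in 12 groups, and about 1 in 20, or 11, are flagged by chance. Neither number covers the lists left out. Saline library 2 was the highest for Kit (gap of 0.728 of the range), Gpsm3 (0.691), Adcyap1 (0.739) and Grik2, a kainate receptor subunit (0.703). Saline library 0 was the lowest for the level of the neuropeptide list (0.668) and for Slco1c1, a transporter of thyroid hormone in brain vessels (0.656). Cocaine library 3 was the highest for Dnajc22 (0.688) and B3galt5 (0.655), cocaine library 5 the highest for Gpsm3 (0.856), cocaine library 2 the highest for Abcc9 (0.702), cocaine library 0 the lowest for Nts (0.648) and cocaine library 4 the lowest for Gabrg1 (0.705). Some lists left out also held a library far from its group. The level of cytosolic heat shock was 6.58 in cocaine library 2 and 5.97 to 6.15 in the other cocaine libraries. That of the unfolded protein response was 5.25 in cocaine library 0 and 5.17 to 5.19 in the other cocaine libraries.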

How the results depend on the processing

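Of 95 named genes with alternatives, 90 kept sign and side of the adjusted threshold in each of the 23 alternatives that tested them. The others were B230209E15Rik, which passed with library quality weights, and Th, Slc6a3, Slc18a2 and Drd2, which changed sign. Genes with a mean under 5 FPKM were not tested in the setting with that filter. No named gene passed in the main fit, and a difference that shrank without changing sign counts as kept. The count therefore does not speak to the size of the differences. The 3 settings that leave out several libraries were chosen after seeing the data. No paired analysis was possible because nothing links the numbers in the column names to the replicates of the labels.

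The main analysis called 0 genes. It called 1 with library quality weights, 1 without saline libraries 0 and 2 and 1 without saline libraries 0, 1 and 2 (both Mir6376, adjusted p 0.000477 and 0.00272), and 0 in every leave-one-out fit. Genes at an unadjusted p under 0.05 were 1078, against 577 with the spread shared over all 8 groups, 493 without saline libraries 0 and 2 and 297 without saline libraries 0, 1 and 2, and 690 (without saline library 2) to 1347 (without saline library 3) when 1 library was left out. Genes at that p and at least 1.3-fold were 70, against 129 with a pseudocount of 0.1, 34 at a mean of at least 5 FPKM, 42 with weights, 33 without cocaine libraries 2 and 3, 42 without saline libraries 0 and 2 and 41 without saline libraries 0, 1 and 2, and 46 (without cocaine library 3) to 114 (without saline library 3) in leave-one-out fits, with 108 without saline library 4. Genes without overlap were 53, against 279, 130 and 218 in those 3 settings and 68 to 132 in leave-one-out fits, where fewer libraries have to be apart. The medians of GABA transmission (0.0452 without saline libraries 0, 1 and 2), astrocytes (0.0070 with weights, -0.0401 to 0.0139 in leave-one-out fits) and respiration (0.0042 without cocaine libraries 2 and 3) moved by more than 1 SD of the list's level over saline libraries. Larger moves in lists with a wider spread, such as dopamine neurons (-0.08 to 0.21), large fast-firing neurons (0.50 to 0.01), microglia (-0.16 to -0.02) and the hypothalamus (-0.25 to -0.07), and that of sterol synthesis (0.07 to 0.02), stayed within 1 SD. That SD was taken over all saline libraries, also those that a setting left out. It was 0.491 for large fast-firing neurons and 0.186 for microglia, so a median could move to near 0 and stay within it.

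With weights the differences were 0.31 for Th, 0.31 for Slc6a3, 0.21 for Slc18a2 and 0.19 for Drd2. Without cocaine libraries 2 and 3 they were 0.41, 0.38, 0.26 and 0.29, without saline libraries 0 and 2 0.0873, 0.18, 0.10 and 0.0494, and without saline libraries 0, 1 and 2 0.11, 0.36, 0.20 and 0.16. Leave-one-out fits gave -0.27 to 0.16 for Th, -0.25 to 0.21 for Slc6a3, -0.28 to 0.13 for Slc18a2 and -0.24 to 0.11 for Drd2. The cause was not tested. Fits of the 2 paradigms compared alone also called 0 genes.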
